A study of Mus musculus with 8 samples.

Results

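The receptors for calcitonin gene-related peptide (CGRP) and adrenomedullin were followed in fetal mouse lung through 5 genes, Ramp1, Ramp2, Ramp3, Calcrl and Adm, out of the 55385 genes counted. Ramp1 was chosen because its level was higher in lungs with tracheal occlusion (TO), so its difference is given as a description without a test. The other 4 genes were taken as its receptor partners and the adrenomedullin ligand. Whole lungs of C57BL/6 fetuses were collected at E18.5 for mRNA-seq, and all 5 symbols matched a single gene. In the TO group the trachea had been tied off at E16.5 by a suture through the uterine wall that also took in a carotid artery and a jugular vein. The sources used here do not say whether the control lungs came from sham-operated or untouched fetuses.

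Counts of 4 control lungs (control 1 to 4) and 4 TO lungs (TO 1 to 4) were used, numbered as their labels number the replicates. Controls 1, 2 and 4 and TO 2, 3 and 4 were compared first, because the others are absent from the study's own display of these libraries and no reason for this was found. Counts on genes ranged from 22822261 to 35002061 in 7 libraries and were 270078 in TO 1, where 1 read was worth 3.44 CPM, counts scaled to a common library size with TMM factors. TO 1 also stood apart in content, with 268.5 CPM over 7 T cell and thymocyte markers against at most 16.5 in any other library, and with 2751 CPM over 7 skeletal muscle markers against at most 306.1. All 8 lung epithelial and all 10 endothelial markers had reads in every library. The labels do not say whether the lungs of a group came from separate litters, so p-values measure the spread between these samples.

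Receptor activity-modifying proteins (RAMPs) are small membrane proteins that pair with the receptor encoded by Calcrl and set which peptide it binds. With Ramp1 the pair is the CGRP receptor, and with Ramp2 or Ramp3 it is a receptor for adrenomedullin, the vasodilator peptide encoded by Adm. These receptors signal mainly through cyclic AMP. Calcrl and Ramp2 are best known from endothelium, where adrenomedullin is needed for the growth of blood and lymphatic vessels. CGRP itself is made in the lung by sensory nerves and neuroendocrine cells.

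In GENCODE M21 on GRCm38, Ramp1 (ENSMUSG00000034353.14) is on chr1:91179822-91225196, plus strand. Ramp2 (ENSMUSG00000001240.13) is on chr11:101246028-101259546, plus strand, and 33.4% of its merged exon bases overlap exons of Vps25 on the same strand. Ramp3 (ENSMUSG00000041046.7) is on chr11:6658521-6677475, plus strand, with 101 exon bases that overlap the pseudogene Gm11978 on the opposite strand. Calcrl (ENSMUSG00000059588.13) is on chr2:84330626-84425411, minus strand, and Adm (ENSMUSG00000030790.15) on chr7:110627661-110629820, plus strand. All are protein-coding genes. Counts were taken over both strands together, so reads from overlapping genes on opposite strands cannot be told apart.

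The 250 bases before the RefSeq start of Ramp1 and of Adm are shown because these genes had their highest or second highest level among the 7 deep libraries in the same control lung, control 3. They were read from the RefSeq promoter table for GRCm38.p6, which held 4 of the 5 genes, without Ramp2. Ramp1 is read from chr1:91179572-91179821 and Adm from chr7:110627407-110627656, both on the plus strand, 5′ to 3′. Capitals mark matches on either strand to ACGTG and GCGTG, the core letters at which hypoxia-inducible factors bind, and to TGACG, the core of the cyclic AMP response element.
Ramp1: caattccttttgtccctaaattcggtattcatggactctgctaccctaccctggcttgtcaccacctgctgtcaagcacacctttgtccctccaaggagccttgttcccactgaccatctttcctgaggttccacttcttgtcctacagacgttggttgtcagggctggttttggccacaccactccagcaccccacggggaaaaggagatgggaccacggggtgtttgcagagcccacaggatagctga
Adm: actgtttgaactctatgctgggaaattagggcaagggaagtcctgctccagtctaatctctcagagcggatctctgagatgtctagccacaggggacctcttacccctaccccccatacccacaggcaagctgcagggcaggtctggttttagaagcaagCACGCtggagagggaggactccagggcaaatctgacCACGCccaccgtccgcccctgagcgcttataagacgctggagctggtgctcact
The Adm window held 2 matches, both to GCGTG on the strand opposite to the one printed, beginning 90 and 54 bases before the start. The Ramp1 window held 0 matches to any of the 3 motifs. The Ramp3 window held 2 matches to GCGTG and the Calcrl window held 0. Of 32851 windows of the same length in the table, 28.2% held GCGTG, 16.6% held ACGTG, 38.6% held either and 17.8% held TGACG, so a match is common and is given as a description of the letters only.

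Ramp1, the partner that makes Calcrl a CGRP receptor, showed the separation for which it was chosen. Its level was 7.49 CPM in control 1, 8.90 in control 2 and 6.94 in control 4, and 17.4 CPM in TO 2, 18.3 in TO 3 and 19.9 in TO 4. Every TO lung was therefore above every control lung in the 6 libraries, with means of 7.78 ± 1.01 CPM in control and 18.54 ± 1.26 CPM in TO (SD, n = 3 each). The log2 fold change fitted by edgeR was 1.25 (SE 0.18), a 2.38-fold higher level in TO. Because Ramp1 was selected on this contrast, no p-value is given. Of 21859 genes tested in the 6 libraries, 5.09% had all TO lungs above all control lungs, and 5.81% had all below. In whole lung, more cells that express a gene and more RNA of it per cell cannot be told apart.

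The lungs outside the 6 libraries changed this picture. Control 3, from 585 reads, had 19.7 CPM of Ramp1 and lay among the TO lungs. TO 1 had 27.5 CPM, from 8 reads. With all 8 libraries the groups overlapped, the fitted log2 fold change was 0.85 (SE 0.33), and the control mean rose to 10.7 ± 6.00 CPM (SD, n = 4). Leaving control 3 out of the 8 libraries gave 1.33, and leaving out any other single library of the 8 gave 0.70 to 0.93. Lungs with the same replicate number can also be set side by side, since those of numbers 2, 3 and 4 deviated together across genes. Their correlations were 0.287, 0.507 and 0.445, but control 1 with TO 4 also reached 0.345. The pairing was read from these values and from shared specimen codes, and no litter is stated. Ramp1 was 1.95 times as high in TO as in control for number 2, 0.932 times for number 3 and 2.87 times for number 4. For number 1 the ratio was 3.68, from the 8 reads of TO 1.

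**Figure D1:**
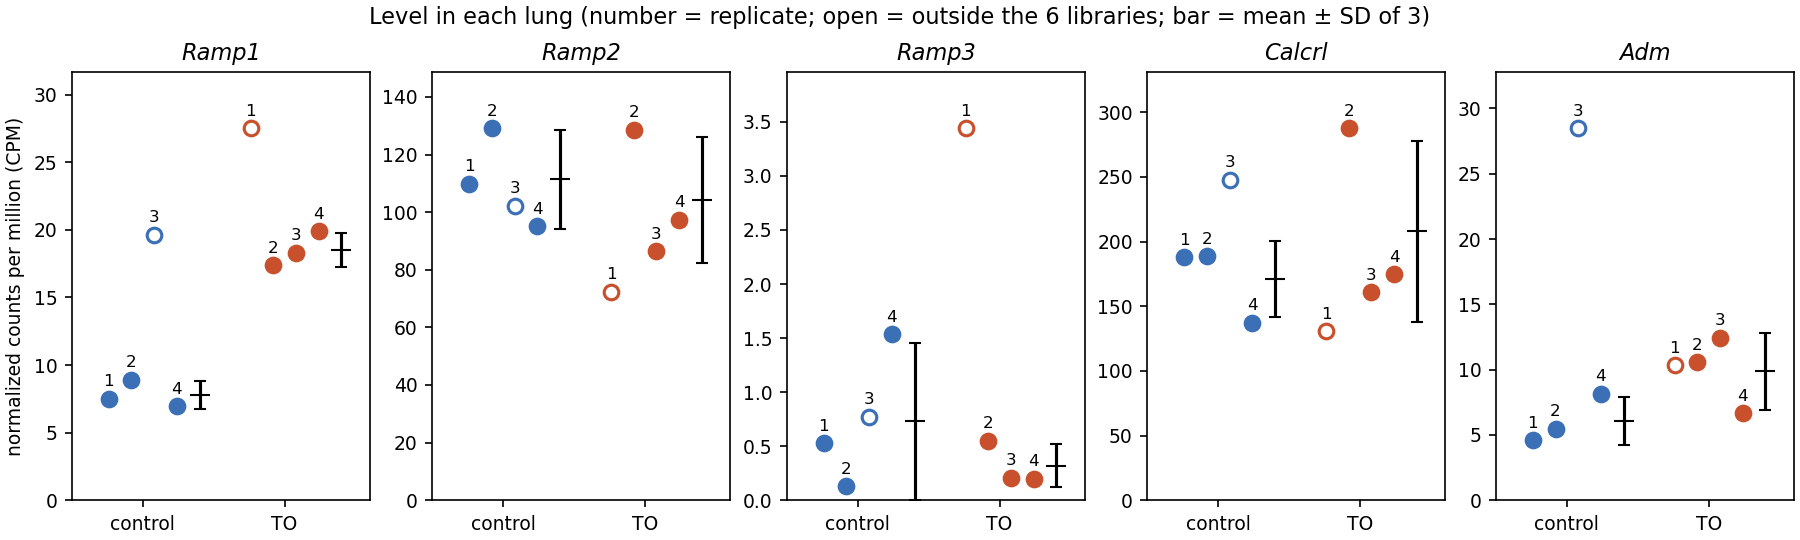
Level of each gene in every lung in normalized CPM on a linear axis from 0, with control lungs in blue, TO lungs in red and the replicate number above each point. Open points are control 3 and TO 1, and bars are the mean ± SD of the 3 filled points in a group. Ramp1 separates the filled points, while control 3 sits with the TO lungs at 19.7 CPM and stands alone for Adm at 28.5 CPM.

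Ramp2, the partner for the adrenomedullin receptor, was the most abundant of the RAMPs and did not pass the test. Its levels were 109.9, 129.2, 102.2 and 95.1 CPM in controls 1 to 4 and 128.6, 86.4 and 97.4 CPM in TO 2 to 4, with 72.3 CPM from 21 reads in TO 1. The highest control lung and the highest TO lung carried the same replicate number and were almost level, and the groups overlapped. The log2 fold change was -0.10 (SE 0.17, edgeR quasi-likelihood test, adjusted p = 0.968) in the 6 libraries and -0.14 (SE 0.17) in all 8.

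Ramp3, the other adrenomedullin partner, was barely counted. It had 12, 4, 23 and 38 reads in controls 1 to 4 and 1, 19, 5 and 7 reads in TO 1 to 4. These counts correspond to 0.130 to 1.53 CPM in the 7 deep libraries, and the groups overlapped. The log2 fold change was -1.18 with an SE of 0.998 (edgeR, adjusted p = 0.920), so at this depth a difference in either direction was not detectable. Without control 4, the library with the most Ramp3 reads, it was -0.02, and on the reads of the first strand alone it was -2.26 (edgeR, adjusted p = 0.892).

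Calcrl, the receptor itself, was the member with the highest CPM. Its levels were 187.7, 188.7, 247.8 and 137.3 CPM in controls 1 to 4 and 287.8, 161.0 and 174.6 CPM in TO 2 to 4, with 130.8 CPM from 38 reads in TO 1. TO 2 was the highest lung of all and control 4 the lowest of the deep ones, and the groups overlapped. The log2 fold change was 0.28 (SE 0.22, edgeR, adjusted p = 0.914) in the 6 libraries and 0.02 (SE 0.24) in all 8. Without TO 2 it was -0.03 in the 6 libraries.

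The ligand gene Adm was low in most lungs and had its highest level in a control. It was 4.60, 5.49 and 8.15 CPM in controls 1, 2 and 4 and 10.6, 12.4 and 6.64 CPM in TO 2, 3 and 4. Control 3 had 28.5 CPM, from 848 reads, and TO 1 had 10.3 CPM, from 3 reads. In the 6 libraries TO 4 lay within the control lungs, and the log2 fold change was 0.69 (SE 0.31, edgeR, unadjusted p = 0.0518, adjusted p = 0.907). With all 8 libraries the direction turned, to -0.24 (SE 0.54), and leaving control 3 out of the 8 brought it to 0.71. Within replicate numbers, Adm in TO was 1.93 times the control level for number 2, 0.436 times for number 3 and 0.815 times for number 4, and 2.25 times for number 1, from the 3 reads of TO 1.

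In the 6 libraries edgeR called 0 genes of 21859 at an adjusted p under 0.1 (0%), none of the 4 tested members among them. At an unadjusted p under 0.05 there were 1123 genes (5.14%), and none of the 4 members among them either. limma-voom called 0 genes (0%) and DESeq2 called 44 (0.201%), with none of the 4 members. In all 8 libraries edgeR called 0 genes of 22545 (0%), and 530 had an unadjusted p under 0.05 (2.35%). In the same libraries 7 genes were called by DESeq2 (0.031%). With the replicate number as a block, edgeR called 219 genes in the 6 libraries (1.0%) and 5 in the 7 deep libraries (0.0222%), again with none of the 4 members. In the 6 libraries only numbers 2 and 4 form complete pairs, and the blocked fit there gave Calcrl a log2 fold change of 0.48 (SE 0.14, edgeR, adjusted p = 0.134). With number 3 included, in the 7 deep libraries, the blocked value of Calcrl was 0.11 (SE 0.21).

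**Figure D2:**
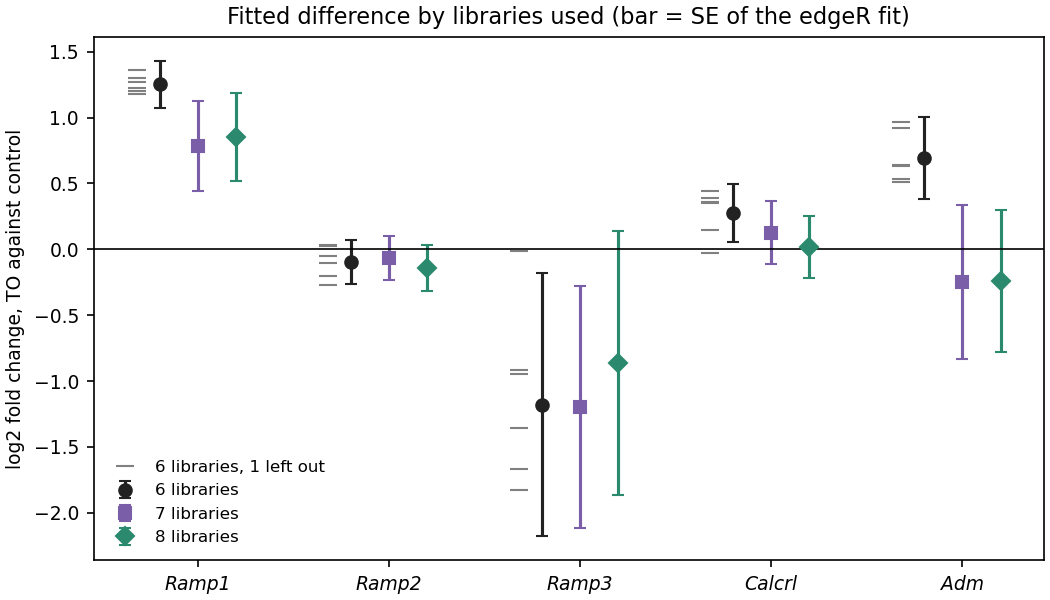
Fitted log2 fold change of TO against control for each gene, with the SE of the edgeR fit, in the 6 libraries, in 7 (control 3 added) and in all 8, and as grey dashes for the 6 libraries with 1 left out. Adding control 3 lowered Ramp1 from 1.25 to 0.78 and turned Adm from 0.69 to -0.25, while the interval of Ramp3 was wide in every fit.

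Levels were compared between members per kilobase of merged exons. In the 3 control lungs of the 6 libraries, the level was 35.1 ± 6.02 CPM per kb for Calcrl, 33.8 ± 5.17 for Ramp2, 3.75 ± 1.14 for Adm, 2.57 ± 0.334 for Ramp1 and 0.529 ± 0.525 for Ramp3 (SD, n = 3). Calcrl was above Ramp2 in control 1 and below it in controls 2 and 4. Adm was above Ramp1 in each of these lungs, at 2.84 against 2.48, 3.39 against 2.95 and 5.035 against 2.30 CPM per kb in controls 1, 2 and 4. These differences between genes were not tested. The order of Calcrl and Ramp2 also depends on the length used. With the principal transcript in place of merged exons Ramp2 stood at 94.6 ± 14.5 CPM per kb, above Calcrl. The bases shared with Vps25 count in the merged length of Ramp2, while reads on them are set aside as ambiguous. Its level per kb of merged exons, and its share of the RAMPs, can therefore be too low. Among genes tested, 95.2% were below Calcrl per kb of merged exons, 94.0% below Ramp2, 60.4% below Adm, 57.8% below Ramp1 and 20.3% below Ramp3.

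Ramp1 made up a small part of the RAMP transcripts in every lung. Per kb of merged exons, it was 6.86%, 6.98% and 7.13% of the summed level of the 3 RAMP genes in controls 1, 2 and 4, and 12.8%, 18.7% and 18.2% in TO 2, 3 and 4. Control 3 was at 17.1% and TO 1, with 8 reads of Ramp1, at 27.2%. Ramp2 made up 80.8% to 92.8% in the 7 deep libraries. With the principal transcript the Ramp1 share was 3.32% to 3.51% in controls 1, 2 and 4, 6.39% to 9.69% in TO 2 to 4 and 8.83% in control 3. These shares contain Ramp1 and are given without a test.

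**Figure D3:**
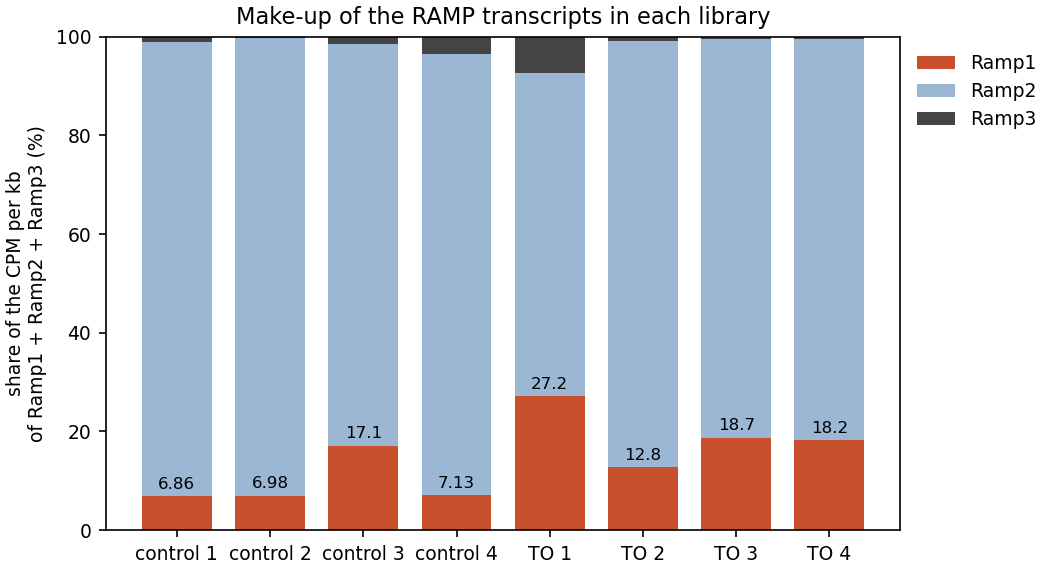
Share of Ramp1, Ramp2 and Ramp3 in their summed CPM per kb of merged exons, in percent, with 1 stacked bar for each library and the share of Ramp1 printed above its segment. Ramp2 fills most of every bar, and the Ramp1 segment is 6.86% to 7.13% in controls 1, 2 and 4 against 17.1% in control 3 and 12.8% to 27.2% in the TO lungs.

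Ratios between members inside a library need no scaling, and 3 ratios among Ramp2, Ramp3 and Calcrl were tested. The log2 ratio of Ramp2 to Calcrl was -0.77, -0.55 and -0.53 in controls 1, 2 and 4 and -1.16, -0.90 and -0.84 in TO 2, 3 and 4. All TO lungs were below these control lungs, by a mean of 0.35 (two-sided exact permutation test, p = 0.1, the smallest that 3 against 3 allow, and 0.3 after adjustment over the 3 ratios). Control 3, at -1.28, was below every TO lung, and with all 8 libraries the difference in means was -0.15 (exact permutation p = 0.486). The log2 ratio of Ramp2 to Ramp3 differed by 0.62 (exact permutation p = 0.7) and that of Ramp3 to Calcrl by -0.97 (exact permutation p = 0.6), both resting on the few reads of Ramp3. The log2 ratio of Adm to Calcrl, which was not tested, differed by 0.45 in the 6 libraries and by 0.02 with control 3 added, and the groups overlapped.

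The 10 endothelial markers, including Pecam1 and Cdh5, summed to 2108 to 2328 CPM in controls 1, 2 and 4, to 1746 to 2639 in TO 2 to 4 and to 2569 in control 3. TO 2 was the highest deep library for both this sum and Calcrl. With the endothelial counts as the library size, the log2 fold changes in the 6 libraries were 1.39 for Ramp1, -0.01 for Ramp2, 0.35 for Calcrl and 0.81 for Adm. None of the tested members passed, and neither did any other gene in that fit.

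Marker sums of some of the 19 cell lists are given beside Ramp1. The summed level of the 7 macrophage markers, such as Adgre1 and Csf1r, was 118.5 to 125.9 CPM in controls 1, 2 and 4 and 135.7 to 210.4 CPM in TO 2 to 4. Control 3, with its high Ramp1, had 129.2 CPM and TO 1 144.6 CPM. The sum was therefore higher in every TO lung than in every control lung. Marker by marker, 2 of the 7 had all TO lungs above in the 6 libraries and 0 in all 8. Of all genes tested, 5.09% and 0.71% had this separation. By mean log2 CPM over the markers, TO 1 was at 3.26, among the control lungs at 3.21 to 3.56. The fitted difference was positive for all 7 macrophage markers in the 6 libraries. Of these, 4 had an unadjusted p under 0.05 (edgeR), while 3.07% of all genes tested were so and higher in TO. After adjustment 0 of the 7 passed, as did 0 of all 21859 genes tested. The 7 skeletal muscle markers summed to 22.4 to 134.5 CPM in controls 1, 2 and 4. They summed to 149.1 to 306.1 CPM in TO 2 to 4 and to 174.2 CPM in control 3, of which Ckm gave 129.8. By mean log2 CPM over these markers, control 3 was at 2.32, within the 0.70 to 3.81 of the other controls. TO 2 to 4 were at 3.66 to 4.66. The 6 atrial cardiomyocyte markers summed to 309.6 to 2598 CPM in controls 1, 2 and 4, to 1787 to 2904 in TO 2 to 4 and to 3084 in control 3. Control 4, at 2598 CPM of the atrial markers, had the lowest Ramp1 of all. For pericyte, smooth muscle and nerve markers the sums of the groups overlapped. Pericyte markers summed to 790.7 to 1139 CPM in controls 1, 2 and 4, 1059 to 1191 in TO 2 to 4 and 1345 in control 3. Smooth muscle markers summed to 593.9 to 859.8, 548.8 to 1108 and 1027 CPM in the same order. Nerve and Schwann cell markers summed to 18.1 to 32.1, 31.2 to 34.0 and 25.2 CPM. The part of any of these cells in the Ramp1 difference was not tested.

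**Figure D4:**
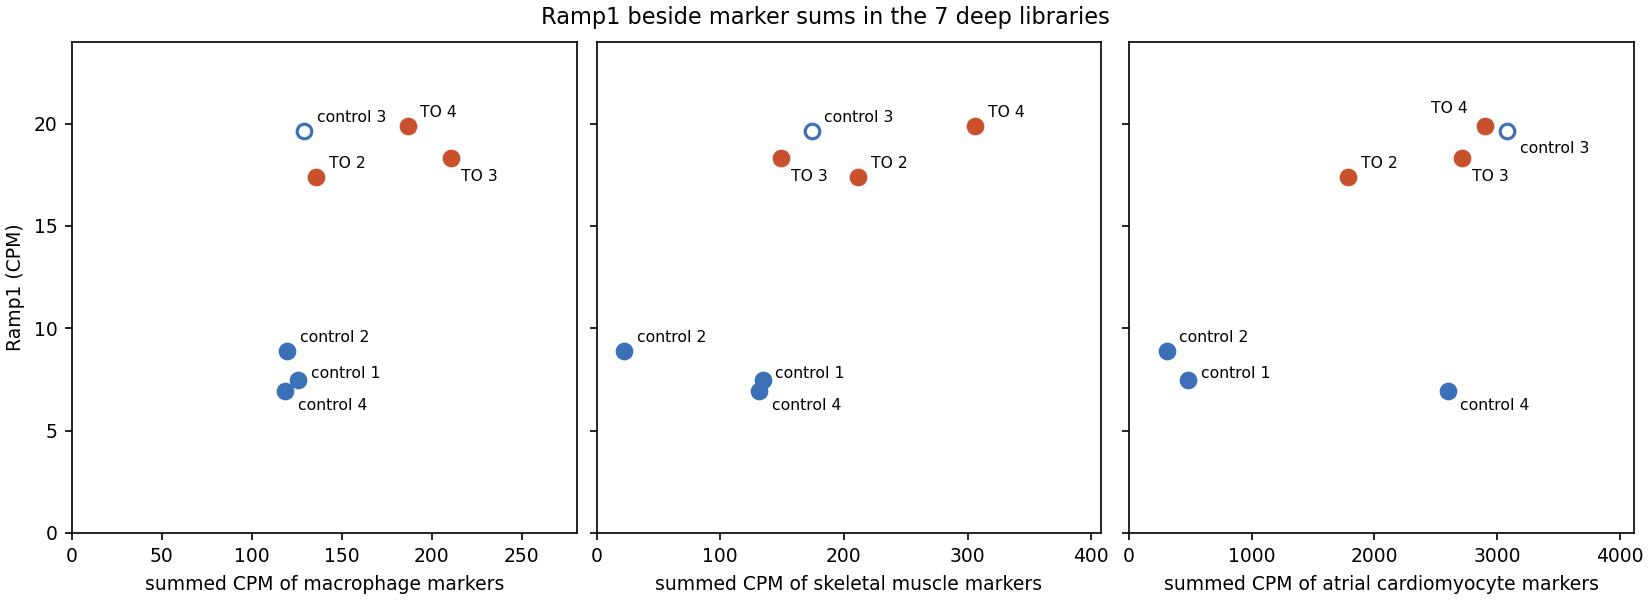
Ramp1 in CPM against the summed CPM of 7 macrophage, 7 skeletal muscle and 6 atrial cardiomyocyte markers in the 7 deep libraries, with control lungs in blue, TO lungs in red and control 3 as the open point. Ramp1 is either 6.94 to 8.90 CPM or 17.4 to 19.9 CPM, and the upper set holds control 3. Control 4 has 2598 CPM of atrial markers with 6.94 CPM of Ramp1.

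The genes whose log2 CPM followed that of Ramp1 most closely over the 7 deep libraries, among 13107 genes with at least 50 reads in each, were Gm11992, Itgal, Mpc1-ps, Tprkb, Timp4, Gpank1, Myom3, Plcd1, Ccl6 and Thy1. Pearson's r ranged from 0.914 to 0.980. These are correlations over 7 lungs that share their groups and are a description only. Itgal, an integrin chain of leukocytes, was at 7.27, 6.98, 12.8 and 6.46 CPM in controls 1 to 4 and at 11.8, 10.9 and 10.1 CPM in TO 2 to 4. Only 2 of the 10 were also among the 10 closest in the 6 libraries, and 1 by rank correlation. For Adm the closest 5 were Slc25a36, Vldlr, Uap1l1, Plekhb2 and Smpdl3a (r of 0.986 to 0.994), each at its highest of the 7 deep libraries in control 3. That peak follows from how they were picked, since Adm itself was by far highest in control 3. Ramp2 was closest to Macc1, Aldh2, Lpcat3, Ica1 and Rab9 (r of 0.972 to 0.992).

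The other ligands and receptors of the family were counted at low levels or overlapped between groups. Of 8 such genes 7 were tested, and 0 passed in either direction, as did 0 of all 21859 genes tested in the 6 libraries. Their median log2 fold change was 0.04 against -0.0045 for all genes tested. Calca, which encodes calcitonin and alpha-CGRP, was at 5.30, 4.84, 5.28 and 5.29 CPM in controls 1 to 4 and at 6.80, 5.99 and 6.13 CPM in TO 2 to 4. These TO lungs were above all 4 control lungs, with a log2 fold change of 0.29 in the 6 libraries (SE 0.23, edgeR, adjusted p = 0.912). In the 6 libraries 5.09% of genes had a separation with TO above, and the share with control 3 added was not taken. TO 1 had 1 Calca read, and its 3.44 CPM lay below the controls. The 7 neuroendocrine markers summed to 25.1 to 29.5 CPM in controls 1, 2 and 4 and to 14.8 CPM in control 3. In TO 2 to 4 the sum was 22.5 to 28.2 CPM. Uchl1 gave 9.95 to 18.9 CPM of it in the 6 libraries and 6.92 CPM in control 3. Chga was at 0.526, 0.682, 1.78 and 0.646 CPM in controls 1 to 4. In TO 2 to 4 Chga was at 2.92, 4.42 and 1.22 CPM. The fitted difference in the 6 libraries was positive for 2 of the 7 markers and negative for 5, and 0 passed. Calcb, which encodes beta-CGRP, had 0 to 22 reads per library and Adm2, the related peptide intermedin, 0 to 70. Calcr, the calcitonin receptor, had at most 15 reads in any library. Iapp, which encodes amylin, did not pass the filter. Ackr3 and Gpr182, receptors that take up or have been linked to adrenomedullin, differed by 0.04 (SE 0.19) and -0.15 (SE 0.22) on the log2 scale.

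Among 10 genes that process or degrade such peptides, 9 were tested, with a median log2 fold change of 0.24. After adjustment 0 passed, as did 0 of all 21859 genes tested in the 6 libraries. Furin and Cpe, a proprotein convertase and a carboxypeptidase of peptide processing, had an unadjusted p under 0.05 and were higher in TO, while 3.07% of all genes tested were so. With control 3 added, their unadjusted p was 0.223 for Furin and 0.147 for Cpe (edgeR). Cpe was at 32.7, 31.5, 99.9 and 79.1 CPM in controls 1 to 4 and at 82.9, 85.9 and 106.5 CPM in TO 2 to 4, a log2 fold change of 0.94 (SE 0.33, edgeR, adjusted p = 0.907). Pam, the enzyme that amidates CGRP and adrenomedullin, was at 187.6, 131.6, 795.6 and 683.3 CPM in controls 1 to 4 and at 524.8, 669.0 and 688.9 CPM in TO 2 to 4. Its low lungs, controls 1 and 2, were those with the lowest atrial marker sums, 482.1 and 309.6 CPM. Controls 1 and 2 were also the lowest lungs for Cpe, and the part of atrial tissue in these levels was not tested. With the replicate number as a block in the 6 libraries, Cpe (log2 fold change 0.91, edgeR, adjusted p = 0.00608) and Pam (2.0-fold, adjusted p = 0.0418) were called higher in TO, and in the 7 deep libraries neither was. These fits called 1.0% and 0.0222% of all genes tested. A block by the digits that specimen codes share called neither in the 6 libraries (edgeR, adjusted p of 0.662 and 0.716). Without control 4, Pam and Cpe were also called (edgeR, adjusted p of 0.0260 and 0.0304), among 52 genes called in that fit.

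All 18 genes for cyclic AMP signalling below the receptor were tested and 0 passed, as did 0 of all 21859 genes tested in the 6 libraries. The fitted level in TO lungs was higher for 8 and lower for 10, and their median difference was -0.01 on the log2 scale. Adcy4, an adenylyl cyclase, was at 43.1, 47.5, 53.2 and 45.0 CPM in controls 1 to 4 and at 31.0, 40.2, 40.5 and 38.4 CPM in TO 1 to 4, and all TO lungs were below all control lungs, as were 1.3% of genes in the 8 libraries (0.71% had all TO lungs above). The value of TO 1 came from 9 reads. Adcy5, another adenylyl cyclase, was called higher in TO with the replicate block in the 6 libraries alone (log2 fold change 0.74, edgeR, adjusted p = 0.0613), where 1.0% of all genes tested were called. Its 2 lowest lungs were again controls 1 and 2, at 22.6 and 14.8 CPM against 29.2 to 55.8 CPM in the others, and the part of atrial tissue was not tested here either. Of 12 genes that cyclic AMP and CREB induce, 0 passed, and the median difference was 0.15 on the log2 scale. Fosb and Dusp1, immediate-early genes, had an unadjusted p under 0.05 and were higher in TO, as were 3.07% of all genes tested, at log2 fold changes of 1.45 (SE 0.63) and 0.49 (SE 0.19). With control 3 added, the unadjusted p of edgeR was 0.0297 for Fosb and 0.154 for Dusp1. Fosb rested on few reads, 5, 22, 16 and 19 in controls 1 to 4 and 0, 53, 55 and 33 in TO 1 to 4. In all 8 libraries 5 of the 12 genes had a higher and 7 a lower fitted level in TO, against 9 and 3 in the 6 libraries, and the median was -0.04.

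Hypoxia-induced genes were listed because Adm is among the genes known to rise in low oxygen. In the 6 libraries 0 of the 12 passed, as did 0 of all 21859 genes tested, and the median log2 fold change was 0.16. Bnip3, a mitochondrial protein of this response, was at 30.9, 26.7 and 38.5 CPM in controls 1, 2 and 4, at 44.1, 67.6 and 36.8 CPM in TO 2 to 4 and at 164.5 CPM in control 3. Control 3 had the highest level of the 7 deep libraries for 10 of the 12 genes, with a mean log2 CPM of 7.22 over the list against 5.98 to 6.28 in controls 1, 2 and 4 and 6.06 to 6.57 in TO 2 to 4. With all 8 libraries 11 of the 12 genes had a lower fitted level in TO lungs, and their median difference was -0.31 on the log2 scale. Of the 12 genes 0 passed there, as did 0 of all 22545 genes tested. The glucose transporter gene Slc2a1 was at 199.3 CPM in control 3 against 66.3 to 90.8 CPM in the other controls, and Adm moved with these genes in that lung.

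**Figure D5:**
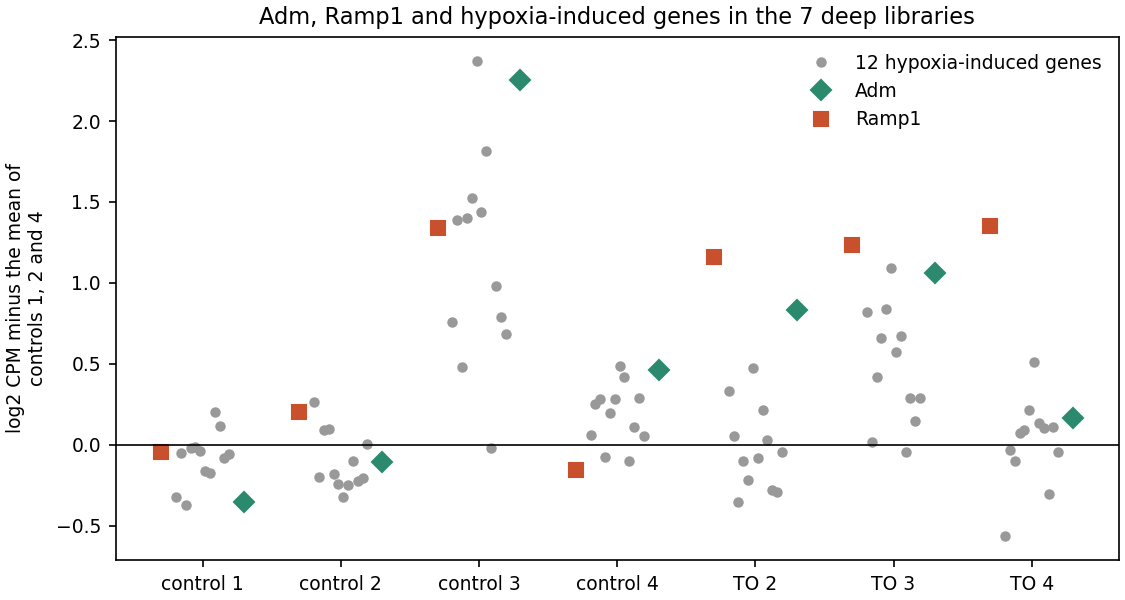
Log2 CPM in each of the 7 deep libraries minus the mean of controls 1, 2 and 4, for 12 hypoxia-induced genes (grey), Adm (green) and Ramp1 (red). Control 3 holds the highest level of 10 of the 12 genes and of Adm, whereas Ramp1 is as high in TO 2 to 4, at 17.4 to 19.9 CPM, as in control 3.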

How the data were processed

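Whole-lung mRNA-seq of 4 control and 4 TO fetuses was used. The authors made NexteraXT libraries, sequenced them as paired ends, aligned them to GRCm38 with STAR and deposited raw read counts per gene, with 1 column for both strands and 1 for each. The STAR version and annotation are not given in the sources used here. Of 55385 IDs, 54487 equal those of GENCODE M21, which gave symbols and coordinates. About 50% of the counts fell on each strand, so the column of both strands was used.

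A gene needed 5 reads in each of 3 or more libraries to enter the test, the quasi-likelihood test of edgeR 4.0.16 (R 4.3.3, TMM scaling, Benjamini-Hochberg adjustment over all genes, threshold 0.1), in the 6 libraries the study showed. CPM used TMM factors of all 8 libraries. DESeq2 1.42.0, limma-voom (limma 3.58.1), other scalings, filters, strands and libraries were alternatives, and 3 of these (DESeq2 in all 8 libraries, a replicate block in 7 and the principal transcript length) were added after the data were seen. The edgeR step was tested on simulated counts. Reads carry no molecular identifiers.

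The members and lists were chosen with earlier results of these data known. The genes named are the 5 members, any gene of the 5 pathway lists, the 10 genes most like Ramp1 and the 5 most like Ramp2 and Adm; those most like Calcrl and Ramp3 are not reported here, and cell markers are named as examples of their lists. The labels give both groups the numbers 1 to 4. Deviations from the group means correlated by 0.287, 0.507 and 0.445 for numbers 2, 3 and 4 (0.345 for control 1 with TO 4, and number 1 was not checked because TO 1 is shallow), so the numbers were taken to pair the lungs, a pairing that comes from the values and from specimen codes that same-numbered lungs share, and not from a stated litter. The codes of numbers 1 and 4 end in the same digits, and a block by these digits was an alternative.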

Additional observations from a re-analysis of the deposited data

Results flagged for a closer look

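Among 4 lungs of a group, a lung was singled out when its gap to the nearest other lung filled most of the group's range (Dixon's test at the 95% level). Chance singles out about 1 in 20 groups. Of the 10 groups of the 5 members, 3 were singled out, and of 117 groups of the pathway genes, 10. Control 3 was the lung in 2 of the 3 and in 7 of the 10. Ramp1 was chosen on these levels, so its place in this count is a description and is not to be read against chance.

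Ramp1 was at 19.7 CPM in control 3 against 6.94 to 8.90 CPM in the other controls. Adm was at 28.5 CPM in the same lung against 4.60 to 8.15 CPM. Ramp3 was at 3.44 CPM in TO 1, which is 1 read. The other results in control 3 were the peptidase Mme at 99.8 CPM, the cyclic AMP sensor Rapgef4 at 26.4 CPM, the kinase Sik1 at 436.9 CPM, and the hypoxia-induced Ankrd37 at 37.9, Egln3 at 255.8, Bnip3 at 164.5 and Kdm3a at 287.0 CPM, each above the other 3 controls. Calca was low in control 2, at 4.84 CPM against 5.28 to 5.30 CPM in the other controls. In TO 2, Iapp was at 0.637 CPM, from 22 reads, and Pam at 524.8 CPM against 669.0 to 688.9 CPM in the other TO lungs.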

How the results depend on the processing

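Ramp1 and Adm moved in the fits that included control 3. For Ramp1 the log2 fold change was 0.85 in all 8 libraries, 0.78 in 7 (all but TO 1), 0.93 with the replicate block in 8, 0.79 with the block in 7 and 0.87 with DESeq2 in 8, and 1.18 to 1.36 with 1 of the 6 libraries left out. For Adm these were -0.24, -0.25, -0.092, -0.20 and -0.24, and 0.51 to 0.97. Ramp2 gave 0.016 with the block in the 6 libraries and -0.27 to 0.032 with 1 library left out. Calcrl gave -0.0082 with the block in 8 and -0.026 to 0.44 with 1 left out, and Ramp3 -1.82 to -0.02. Ramp3 did not pass a filter of 5 reads in every library or the second strand alone, and gave no value there, while the first strand alone gave -2.26. The count of all genes called was 219 with the replicate block in the 6 libraries, 5 with it in 7, 3 with it in 8, 40 with every gene that had a read, 44 with DESeq2, 7 with DESeq2 in 8, and 0 to 144 with 1 library left out, where 52 came without control 4 and 144 without TO 4. Of the 60 pathway genes, 3 were called with the block in the 6 libraries, where 1.0% of all genes tested were called. With 1 library left out the count was 0 to 2, and the 2 came without control 4, where 52 genes were called. The block changed no call of a member. A block by the shared digits of the specimen codes called 0 genes, pathway genes included. The log2 ratio of Ramp2 to Ramp3 differed by -0.33 in all 8 libraries, -0.29 on the second strand, 1.91 on the first strand (exact permutation p = 0.1) and -0.30 to 1.62 with 1 left out. That of Ramp3 to Calcrl differed by 0.17 in all 8, -2.26 on the first strand (exact permutation p = 0.1) and -1.94 to -0.0031 with 1 left out. The cause was not tested in these cases.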

Other observations

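The 6 lymphatic endothelial markers, which include Prox1 and Lyve1 and mark vessels that depend on adrenomedullin signalling, summed to 219.1 to 257.9 CPM in controls 1, 2 and 4, to 255.3 to 332.3 CPM in TO 2 to 4 and to 301.3 CPM in control 3. The fitted difference was positive for 5 of the 6 in the 6 libraries and 3 of the 6 in all 8, with medians of 0.44 and 0.20 on the log2 scale. The exception in the 6 libraries was Ccl21a, at 10.2, 15.3 and 11.1 CPM in controls 1, 2 and 4 and 9.23, 5.94 and 11.2 CPM in TO 2 to 4. An unadjusted p under 0.05 (edgeR) with TO higher was found for 3 of the 6 in the 6 libraries and 1 in all 8. Of all genes tested, 3.07% and 1.43% were so. After adjustment 0 passed, as did 0 of all genes tested in either fit. The 5 general capillary markers summed to 592.3 to 663.5 CPM in controls 1, 2 and 4 and to 464.0 to 570.0 CPM in TO 2 to 4, with control 3 at 508.4 CPM, among the TO lungs.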
